A study of Mus musculus with 4 samples.

Results

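The 37 genes described here encode the enzymes and transporters that carry glucose to pyruvate, lactate and the citrate cycle. They were chosen by name, with earlier results of these data known. All 37 were found among 20701 gene symbols in the rows used of the deposited transcript table, where they occupied 55 transcript rows. For the 11 genes with several transcripts, the row with the highest mean product of level and length was kept. Expression was measured by RNA-seq in sorted Nkx2-5-GFP+ cardiac progenitor cells (CPCs) at day 5 of directed differentiation of mouse embryonic stem cells. The comparison asks how Baf60c, a heart-enriched part of the SWI/SNF chromatin remodeller that Smarcd3 encodes, affects the genes expressed in these cells. Both groups derived from E14 stem cells that carry an Nkx2-5-EmGFP reporter transgene. The control group (2 libraries) carried the pLKO control vector, and the Baf60c KD group (2 libraries) stably carried a short hairpin RNA against Baf60c. The labels speak of 2 different control and Baf60c KD pools of stem cells, and it is not stated which hairpin was used or whether the pools were differentiated on separate occasions, so every p-value reflects only how these libraries varied, which may be technical variation. The stem cells had been kept on mouse feeder cells before differentiation.

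Glycolysis splits glucose into pyruvate in the cytosol, with hexokinase and phosphofructokinase as the steps under the tightest control. Pyruvate is then reduced to lactate and exported, or enters mitochondria, where the pyruvate dehydrogenase complex turns it into acetyl-CoA for the citrate cycle. Pyruvate dehydrogenase kinases switch that complex off. Embryonic and proliferating heart cells rely largely on glycolysis, and maturing cardiomyocytes turn to mitochondrial oxidation. Many glycolytic genes are known targets of the hypoxia-inducible factor HIF1, and ACGTG, a form of its binding core, lies close to the start of several of them.

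The totals behind the RPKM values were 23233027 and 22064092 reads for control and 22714412 and 30398452 reads for Baf60c KD. They sum over all transcript rows used, so reads shared by several transcripts of a gene count more than once. With 1 row kept per gene, the sums were 13317598 and 12623031 reads for control and 13199243 and 17649363 reads for Baf60c KD. The targeted gene, Smarcd3, had 174 and 167 RPKM in control and 46.4 and 46.3 RPKM in Baf60c KD, and thus fell by 72.8% (log2 change -1.85, SE 0.03, adjusted p = 2.9e-10). Of its 1735 exonic bases, 642 overlap Chpf2 on the opposite strand, whose reads were not separated from its own. Throughout, levels are RPKM (read counts corrected for transcript length and for the size of each library), and changes are limma estimates on log2(RPKM + 1), Baf60c KD minus control, with p adjusted over 11371 tested genes by the Benjamini-Hochberg method. Because 1 is added before the logarithm, these changes understate those of low genes. At an adjusted p under 0.05, 36.1% of all tested genes were higher and 18.2% lower. Cardiomyocyte markers were lower in 15 of 15 tested genes, and their summed level went from 7691 and 7482 to 3134 and 3194 RPKM. Nkx2-5 itself fell from 25.6 and 25.4 to 19.6 and 17 RPKM (log2 change -0.46, SE 0.06, adjusted p = 1.8e-04). Cell cycle genes were higher in 11 of 12, with a summed level of 540.2 and 542 RPKM in control and 716 and 711 RPKM in Baf60c KD. The summed level of markers of other cells was far below that of cardiomyocytes, but higher in Baf60c KD for endothelium (4 of 8 tested genes higher, 3 lower, 39.5 and 37.8 against 60.2 and 62.3 RPKM), blood (3 of 4 higher, 6.15 and 6.85 against 21.6 and 22.4 RPKM, with Ptprc at 0), epicardium (4 of 5 higher, 5.80 and 6.59 against 22.1 and 20.9 RPKM) and fibroblasts or feeder cells (4 of 5 higher, 1 lower, 54.5 and 55.8 against 67.4 and 69 RPKM, with Fap at 0). Within the endothelial sum, Tek rose from 2.13 and 1.86 to 15.5 and 15.6 RPKM, whereas Cdh5 fell from 2.43 and 2.29 to 1.26 and 1.47 RPKM. Pluripotency markers (1 of 3 tested genes higher, 2 lower, 46.5 and 49.8 against 31.8 and 31.1 RPKM) and endoderm markers (1 of 2 higher, 1 lower, 4.75 and 4.61 against 5.26 and 5.87 RPKM) also moved in both directions. The part of these shifts in the values of the metabolic genes was not tested, and in bulk RNA fewer cells of a type and less RNA per cell cannot be told apart.

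In Baf60c KD cells many of the metabolic genes were lower by small amounts, while both glucose transporter genes rose. All 37 genes passed the filter of a mean of 0.5 RPKM. Of them 18 were called lower, 4 were called higher and 15 did not pass the test at an adjusted p of 0.05. Among all tested genes 18.2% were called lower and 36.1% higher, and among the 2468 genes with a mean of at least 20 RPKM 21.9% were called lower and 45.9% higher. The share of lower calls was thus 48.6% for the metabolic genes, and the share of higher calls 10.8%. Because the genes were chosen with earlier results of these data known, these shares were not tested against those of all genes. Beyond 1.5-fold (a log2 change over 0.58), 3 genes were lower (Hk1, Pfkp and Pdk1) and 2 were higher (Slc2a1 and Gapdh), beside 3.56% lower and 4.8% higher among all tested genes. The estimate was negative for 31 of 37 genes, and their median log2 change was -0.11, beside 0.07 for all tested genes and also 0.07 for those of at least 20 RPKM. That median was -0.071 without control replicate 1, -0.075 without Baf60c KD replicate 1 and -0.19 with median-ratio scaling, under which the median of all tested genes was 0.0012. As a share of the reads in kept transcripts, the 37 genes made up 1.19 and 1.16% in control and 1.07 and 1.08% in Baf60c KD.

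These counts moved with the processing in 2 cases. With median-ratio scaling the calls among all genes went from 66.4% to 50.1% higher (55.5% with upper-quartile scaling), and 29 of the 37 genes were called lower and 3 higher, beside 25.5% lower and 25.6% higher among all tested genes. Under that scaling Pfkm, Tpi1, Pkm, Slc16a1, Dlat, Dld, Idh3g, Ogdh, Suclg1, Mdh1 and Mdh2 gained a call as lower. When the 4640 genes with no read in any library were also fitted, only 221 genes in all were called, and Hk1 alone of the 37 (adjusted p = 0.049), beside 0.696% lower and 0.372% higher among all 20701 genes. Over the 16061 genes with at least 1 read, 16 of the 37 were called lower and 4 higher, beside 13.3% lower and 25.3% higher among all of them.

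**Figure D1:**
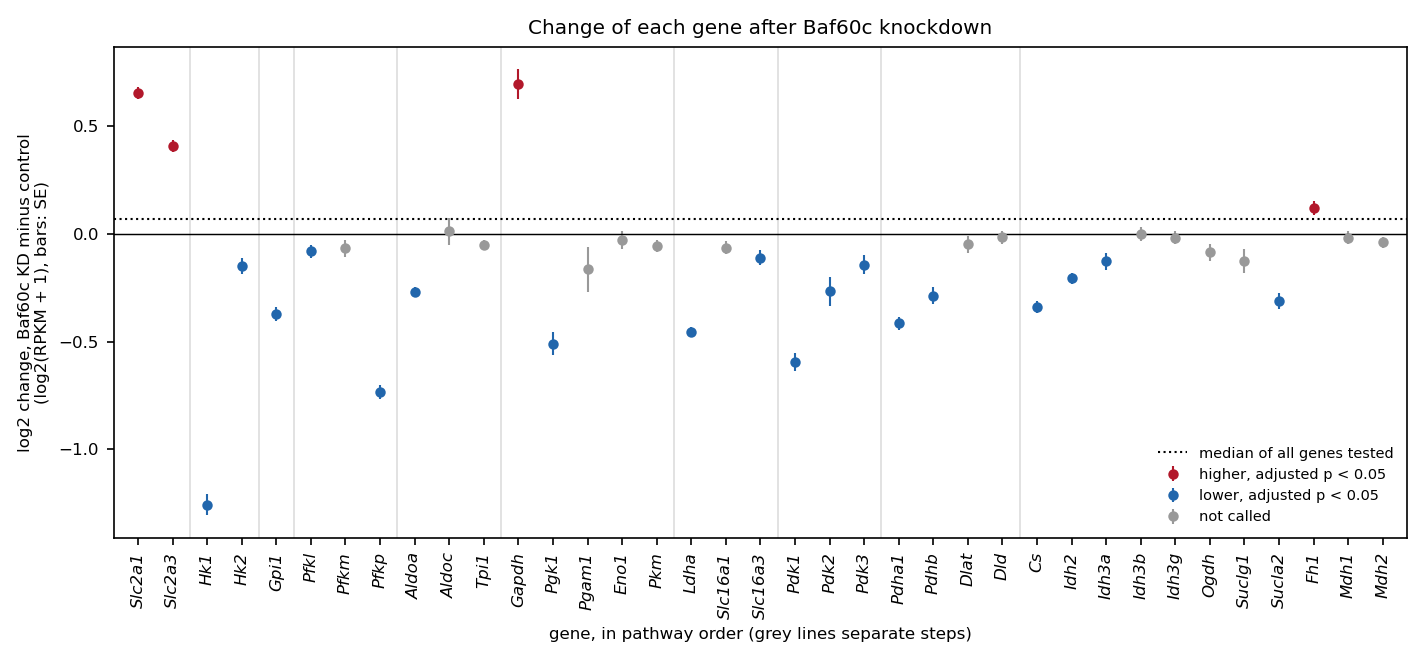
Log2 change of each of the 37 genes (Baf60c KD minus control on log2(RPKM + 1), bars are SE, 2 libraries per group) in pathway order, with the median of all tested genes as a dotted line. The glucose transporters lie above 0 at 0.65 and 0.41, and Hk1 lies lowest at -1.26.

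Of the 10 pathway steps, glucose uptake alone had all of its genes called higher. Slc2a1, which encodes GLUT1, the main basal glucose transporter of embryonic cells (chromosome 4, 118781316 to 118809935 in mm9, 10 exons), had 158 and 150.0 RPKM in control and 242 and 243 RPKM in Baf60c KD. The Baf60c KD libraries lay 1.58-fold higher (log2 change 0.65, SE 0.03, adjusted p = 9.9e-08), although with median-ratio scaling the log2 change of 0.576 came to lie just under the 1.5-fold limit. Its exons overlap Gm12868 on the opposite strand, whose reads were not separated from its own. Slc2a3, the high-affinity transporter GLUT3, went from 96.2 and 93.6 to 125 and 127 RPKM (log2 change 0.41, SE 0.03, adjusted p = 2.2e-06). Both transporters thus rose in each Baf60c KD library, and their summed level went from 254 and 244 to 367 and 371 RPKM. The share of Slc2a1 in that sum was 62.1 and 61.6% in control and 65.9 and 65.7% in Baf60c KD.

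Hexokinase phosphorylates the imported glucose, and Hk1 had the lowest log2 change of the 37 genes. Hk1 (chromosome 10, 61731603 to 61842656 in mm9, 18 exons) had 15.2 and 15.6 RPKM in control and 5.73 and 6.0 RPKM in Baf60c KD. This is a 2.63-fold lower mean (log2 change -1.26, SE 0.05, adjusted p = 5.1e-08), and the groups were far apart relative to the spread within each. Some of its exonic bases overlap 2210417K05Rik on the opposite strand. Hk2, the isozyme that HIF1 and insulin are known to induce, went from 36.7 and 35.4 to 32.5 and 32.4 RPKM (log2 change -0.15, SE 0.04, adjusted p = 0.0061). Hk2 was the more abundant isozyme in every library, and the share of Hk1 in their summed level went from 29.3 and 30.6% to 15 and 15.6%. Within each library the level of Slc2a1 was 10.4 and 9.61 times that of Hk1 in control and 42.3 and 40.6 times in Baf60c KD. Relative to the more abundant Hk2, the level of Slc2a1 was 4.30 and 4.24 times in control and 7.46 and 7.52 times in Baf60c KD. Gpi1, which turns glucose 6-phosphate into fructose 6-phosphate, also fell, from 63.6 and 62 to 47.5 and 49 RPKM (log2 change -0.37, SE 0.03, adjusted p = 1.2e-05). It overlaps Gm17327 on the opposite strand.

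Of the 3 phosphofructokinase isozymes, which carry out the committed step of glycolysis, Pfkp (the platelet type) had the lowest log2 change. Pfkp (chromosome 13, 6579014 to 6648023 in mm9, 22 exons) had 50.4 and 50.2 RPKM in control and 29.4 and 30.3 RPKM in Baf60c KD, 1.68-fold lower (log2 change -0.73, SE 0.03, adjusted p = 1.4e-07), and part of its exons overlaps Pitrm1 on the opposite strand. Pfkl, the liver type, stood at 60.1 and 59.4 RPKM in control and 56.2 and 56.7 RPKM in Baf60c KD (log2 change -0.08, SE 0.03, adjusted p = 0.047). That small decrease lost its call without control replicate 1 or without either Baf60c KD replicate. Pfkm, the muscle type, was not called (22.6 and 22.3 against 20.9 and 21.8 RPKM, log2 change -0.07, SE 0.04). The share of Pfkp in the summed level of the 3 isozymes went from 37.9 and 38.1% to 27.6 and 27.8%, and that of Pfkl from 45.2 and 45% to 52.7 and 52.1%. With 2 libraries against 2, an exact permutation test of such a share cannot give a p under 0.33, so the shares are given without a test.

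**Figure D2:**
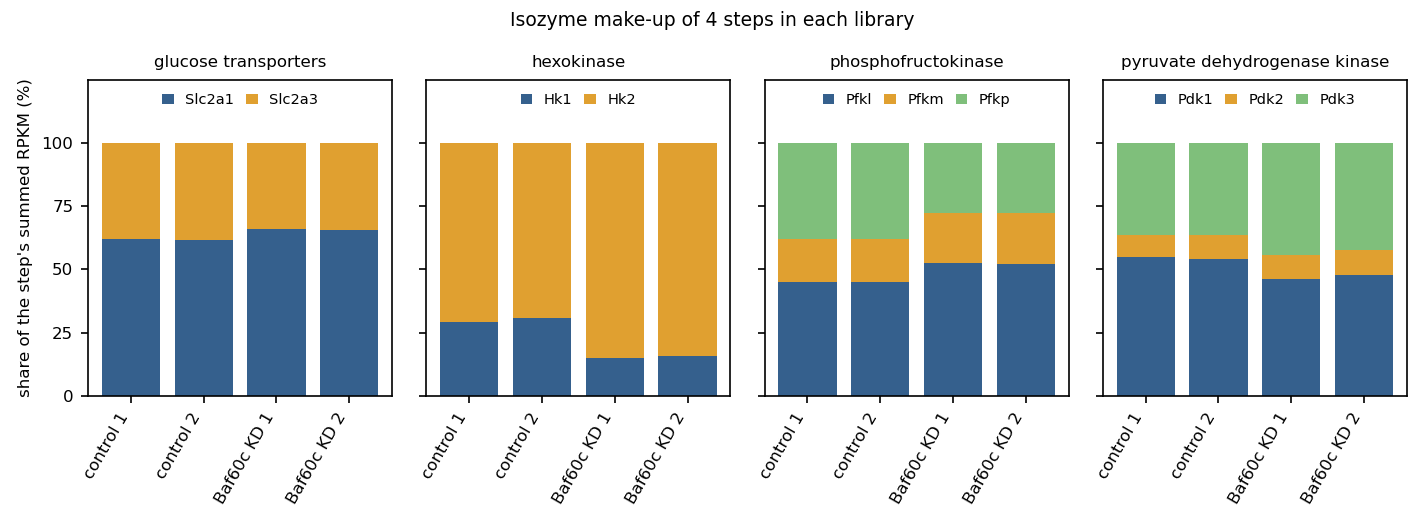
Share of each isozyme in the summed RPKM of its step, in percent, for each of the 4 libraries, at the glucose transporter, hexokinase, phosphofructokinase and pyruvate dehydrogenase kinase steps. The Hk1 share goes from 29.3 and 30.6% to 15 and 15.6%, and the Pfkp share from 37.9 and 38.1% to 27.6 and 27.8%.

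Aldolase splits fructose 1,6-bisphosphate into a pair of triose phosphates, which triose phosphate isomerase interconverts. Aldoa, the muscle and embryonic aldolase and the most abundant of the 37 genes, fell from 614 and 595 to 506 and 497 RPKM (log2 change -0.27, SE 0.02, adjusted p = 7.2e-06). Aldoc, the brain type, was low (6.55, 6.97, 6.47 and 7.19 RPKM in control 1, control 2, Baf60c KD 1 and Baf60c KD 2), and its groups overlapped. Tpi1 was not called (183 and 183 against 175 and 178 RPKM, log2 change -0.05, SE 0.02). It overlaps Spsb2 on the opposite strand by 28 bases.

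The genes of lower glycolysis need care, because much of their sequence recurs in the genome. As a measure of this, each exonic stretch of 50 bases was searched in mm9. Of these stretches 91.1% of Pgam1, 90.2% of Pgk1, 84.1% of Gapdh and 54.4% of Eno1 occurred more than once, against 41.6% for Pkm, 34.1% for Pdhb, 31.4% for Ldha, 28.2% for Tpi1, 26.5% for Gpi1 and 12.9% for Aldoa. For Gapdh, 80.1% occurred over 10 times. How reads that match several places were treated was not stated in the methods, and its part in the levels was not tested. The levels and changes of these 4 genes of mostly repeated sequence are therefore uncertain. Without them, 17 of 33 genes were called lower and 3 higher, beside 18.2% lower and 36.1% higher among all tested genes. Beyond 1.5-fold 3 of them were lower and 1 was higher, beside 3.56% lower and 4.8% higher.

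Gapdh, glyceraldehyde 3-phosphate dehydrogenase, is usually among the most abundant mRNAs, but was listed at only 1.58 and 1.67 RPKM in control and 3.36 and 3.14 RPKM in Baf60c KD, from 52, 52, 108 and 135 reads. Its call as higher (log2 change 0.70, SE 0.07, adjusted p = 2.8e-05) rests on those reads. Pgk1, which makes ATP from 1,3-bisphosphoglycerate, had 17.9 and 17.4 RPKM in control and 12.8 and 11.5 RPKM in Baf60c KD (log2 change -0.51, SE 0.05, adjusted p = 3.9e-05). Pgam1, phosphoglycerate mutase, was at or below 1.56 RPKM in every library, with overlapping groups. Eno1, enolase, did not differ beyond the spread (33.2 and 31.6 against 32.8 and 30.7 RPKM, log2 change -0.03, SE 0.04), and neither did its near-copy Eno1b (51 and 47.6 against 52 and 49.9 RPKM). Pkm, pyruvate kinase, was not called (274 and 259.9 against 259 and 255 RPKM, log2 change -0.06, SE 0.03). It was called lower with median-ratio scaling, upper-quartile scaling and voom on recovered reads. The log2 change of Pkm depended on the control library used, at -0.018 without control replicate 1 and -0.096 without control replicate 2.

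**Figure D3:**
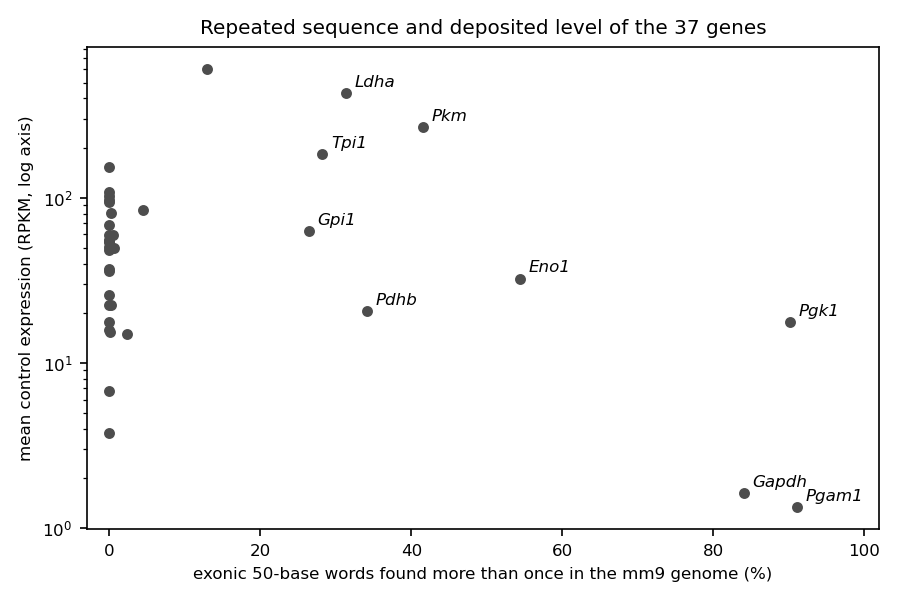
Mean control level (RPKM, log axis) of each of the 37 genes against the percentage of its exonic stretches of 50 bases that occur more than once in mm9. Gapdh and Pgam1, at 84.1 and 91.1%, have the lowest levels, 1.63 and 1.34 RPKM.

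Ldha, the lactate dehydrogenase subunit that favours the reduction of pyruvate to lactate, had 437 and 423 RPKM in control and 312 and 314 RPKM in Baf60c KD, and thus fell by 27.2% (log2 change -0.46, SE 0.02, adjusted p = 2.4e-07). The ratio of the levels of Pkm and Ldha was 0.629 and 0.614 in control and 0.829 and 0.811 in Baf60c KD, and that of Ldha and Slc2a1 was 2.77 and 2.82 in control and 1.29 and 1.29 in Baf60c KD. Of the monocarboxylate transporters, which carry lactate across the membrane, Slc16a3 (MCT4) was called lower (99.8 and 93.7 against 90.2 and 88.7 RPKM, log2 change -0.11, SE 0.03, adjusted p = 0.021), a call that was lost without control replicate 1 or Baf60c KD replicate 2. It overlaps Csnk1d on the opposite strand. Slc16a1 (MCT1) was not called (54.9 and 54 against 51.4 and 52.8 RPKM, log2 change -0.06, SE 0.03).

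At the entry of pyruvate into the citrate cycle, the 3 kinases and both genes of the E1 component of the pyruvate dehydrogenase complex were called lower, and the other 2 genes of the complex were not called. With median-ratio scaling those 2, Dlat and Dld, were also called lower (log2 change -0.12 and -0.09). Pdk1, the kinase that hypoxia is known to induce, had 22.6 and 22.3 RPKM in control and 14.3 and 14.7 RPKM in Baf60c KD, 1.55-fold lower (log2 change -0.59, SE 0.04, adjusted p = 1.9e-06). Without Baf60c KD replicate 1 its log2 change of -0.574 came to lie under the 1.5-fold limit, but remained called lower. Pdk2 went from 3.62 and 3.95 to 2.97 and 2.97 RPKM (log2 change -0.27, SE 0.07, adjusted p = 0.0069). Pdk3 went from 14.9 and 14.9 to 13.7 and 13.1 RPKM (log2 change -0.14, SE 0.04, adjusted p = 0.021), and was no longer called without Baf60c KD replicate 2. All 3 kinases thus fell, and the share of Pdk1 in their summed level went from 54.9 and 54.2% to 46.1 and 47.9%, while that of Pdk3 went from 36.3 and 36.2% to 44.3 and 42.5%.

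Within the pyruvate dehydrogenase complex, both genes of the E1 component fell. Pdha1, the E1 alpha subunit that the kinases phosphorylate, had 80.8 and 81.3 RPKM in control and 60.2 and 60.9 RPKM in Baf60c KD (log2 change -0.42, SE 0.03, adjusted p = 2.3e-06), and it overlaps Map3k15 on the opposite strand. Pdhb, the E1 beta subunit, went from 20.3 and 20.9 to 16.8 and 16.6 RPKM (log2 change -0.29, SE 0.04, adjusted p = 2.3e-04). Neither Dlat, the E2 component (15.8 and 15.8 against 15.4 and 15.1 RPKM, log2 change -0.05, SE 0.04), nor Dld, the E3 component (59.4 and 59.8 against 58.6 and 59.3 RPKM, log2 change -0.02, SE 0.03), was called. The ratio of the levels of Ldha and Pdha1, the enzymes that compete for pyruvate, was 5.40 and 5.21 in control and 5.19 and 5.16 in Baf60c KD, so that every library lay between 5.16 and 5.40.

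Among the 11 citrate cycle genes, 4 fell (36.4%), 1 was called higher (9.09%) and 6 were not called. The shares over all tested genes were 18.2% lower and 36.1% higher. Cs, citrate synthase and the first enzyme of the cycle, had 85.6 and 84 RPKM in control and 67.2 and 66.4 RPKM in Baf60c KD, and thus fell by 21.2% (log2 change -0.34, SE 0.03, adjusted p = 9.7e-06). Sucla2, the ATP-forming subunit of succinyl-CoA ligase, went from 36.6 and 37.9 to 30.2 and 29.4 RPKM (log2 change -0.31, SE 0.04, adjusted p = 8.1e-05). Its shared partner subunit Suclg1 differed between the Baf60c KD libraries (41.4 and 47.1 RPKM, against 47.5 and 49 RPKM in control) and was not called (log2 change -0.13, adjusted p = 0.079). Without Baf60c KD replicate 2 its log2 change was -0.22. It was called lower with median-ratio scaling, upper-quartile scaling, voom on recovered reads and a replicate block.

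Idh2, the NADP-dependent mitochondrial isocitrate dehydrogenase, fell from 109 and 108 to 94.2 and 93.5 RPKM (log2 change -0.21, SE 0.03, adjusted p = 1.5e-04). The NAD-dependent enzyme is built from Idh3a, Idh3b and Idh3g. Its catalytic subunit Idh3a was called lower (25.2 and 26.5 against 23.6 and 23.6 RPKM, log2 change -0.13, SE 0.04, adjusted p = 0.021), although the call was lost without control replicate 2 or either Baf60c KD replicate. The groups of Idh3b (68.1 and 68.4 against 66.8 and 69.7 RPKM) and Idh3g (55.5 and 55.2 against 55.4 and 54 RPKM) overlapped. Idh3b shares 5 exonic bases with Nop56 on the opposite strand.

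Ogdh, the E1 component of the oxoglutarate dehydrogenase complex, was not called (17.7 and 17.9 against 16.5 and 17 RPKM, log2 change -0.09, SE 0.04). Fh1, fumarase, was the only citrate cycle gene called higher (50.3 and 49.3 against 53.7 and 54.7 RPKM, log2 change 0.12, SE 0.03, adjusted p = 0.0096). Its call was lost without Baf60c KD replicate 2, with median-ratio scaling (log2 change 0.04) and with upper-quartile scaling (0.07). Neither malate dehydrogenase was called. Cytosolic Mdh1 had 54.6 and 53.6 against 53.9 and 53.1 RPKM (log2 change -0.02, SE 0.03), and mitochondrial Mdh2 had 103 and 102 against 99.6 and 99.1 RPKM (log2 change -0.04, SE 0.03). The ratio of the level of Cs to that of Mdh2, which precedes it in the cycle, went from 0.834 and 0.827 to 0.675 and 0.670.

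**Figure D4:**
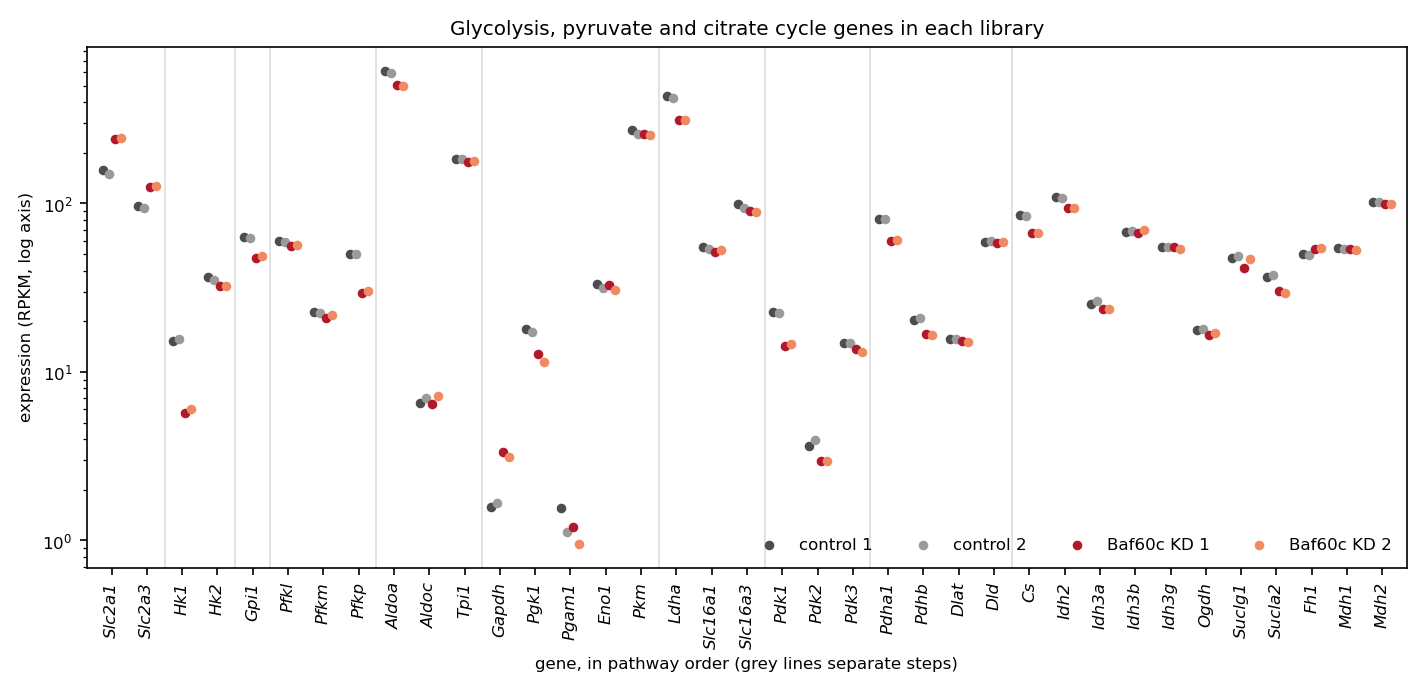
Level of each of the 37 genes (RPKM, log axis) in the 2 control and 2 Baf60c KD libraries, in pathway order. Levels span from 0.955 RPKM for Pgam1 to 614 RPKM for Aldoa, and Hk1 shows the widest gap between the groups, with 15.2 and 15.6 against 5.73 and 6.0 RPKM.

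The promoters of the 37 genes were searched for ACGTG, a form of the core bound by HIF1 and also part of the CACGTG box of MYC. Other forms of that core, such as GCGTG, were not searched. The window ran from 250 bases before to 50 bases after the start, on either strand, in RefSeq sequences of GRCm38.p6, and where a gene had several starts (10 genes) the first listed was used. ACGTG was held by 16 (45.7%) of the 35 genes with a listed promoter, beside 5315 of 27025 genes (19.7%). Those 27025 include genes not tested here. It lay in 7 of 17 promoters of genes called lower, 2 of 3 of those called higher and 7 of 15 of those not called. The promoters below are of genes with a single listed start. Slc2a1, which rose, holds ACGTG 1 time, Hk2 and Pgk1, which fell, hold it 2 times each, and Pfkp, which also fell, holds it 0 times. The Pfkp sequence below does hold GCGTG, and the Slc2a1 sequence holds its reverse complement CACGC. Hk2 and Pgk1 were chosen after their values were seen, to show promoters with ACGTG. Capitals mark ACGTG or its reverse complement CACGT, and a match is no evidence of binding.
Slc2a1 promoter, chr4:119108495-119108794, plus strand: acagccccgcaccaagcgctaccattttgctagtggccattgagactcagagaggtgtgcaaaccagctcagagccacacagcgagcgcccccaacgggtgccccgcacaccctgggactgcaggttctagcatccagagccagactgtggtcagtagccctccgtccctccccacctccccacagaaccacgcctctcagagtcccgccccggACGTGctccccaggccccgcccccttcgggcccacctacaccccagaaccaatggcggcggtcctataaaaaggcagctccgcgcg
Hk2 promoter, chr6:82774405-82774704, minus strand: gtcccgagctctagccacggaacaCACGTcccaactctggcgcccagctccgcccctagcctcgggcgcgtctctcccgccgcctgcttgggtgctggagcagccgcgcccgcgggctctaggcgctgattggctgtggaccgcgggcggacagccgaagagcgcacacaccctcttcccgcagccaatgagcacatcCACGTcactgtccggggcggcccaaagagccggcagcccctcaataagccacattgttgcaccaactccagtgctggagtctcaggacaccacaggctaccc
Pgk1 promoter, chrX:106186850-106187149, plus strand: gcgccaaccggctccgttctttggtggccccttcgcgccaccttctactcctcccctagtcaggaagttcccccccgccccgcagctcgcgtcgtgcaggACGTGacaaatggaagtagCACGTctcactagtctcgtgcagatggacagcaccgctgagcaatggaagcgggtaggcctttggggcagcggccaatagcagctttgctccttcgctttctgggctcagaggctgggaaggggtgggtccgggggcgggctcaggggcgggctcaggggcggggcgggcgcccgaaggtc
Pfkp promoter, chr13:6648722-6649021, minus strand: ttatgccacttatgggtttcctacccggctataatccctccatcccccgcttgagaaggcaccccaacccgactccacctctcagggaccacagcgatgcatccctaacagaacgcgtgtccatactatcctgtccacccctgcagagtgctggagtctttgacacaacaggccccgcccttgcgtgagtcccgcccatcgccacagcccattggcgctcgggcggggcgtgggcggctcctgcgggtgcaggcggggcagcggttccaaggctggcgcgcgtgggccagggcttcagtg

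Other genes of the same routes showed a mixed pattern, read here from lists chosen with earlier results of these data known. All tested genes, to set beside the counts below, were 36.1% higher and 18.2% lower, with a median log2 change of 0.07. Among the other glycolysis and lactate genes, 5 of 13 tested were higher and 4 lower, with a median log2 change of 0.08. The muscle enolase Eno3 fell from 90.1 and 86.5 to 43.8 and 42.1 RPKM (log2 change -1.02, SE 0.03, adjusted p = 2.2e-08), and the neuronal enolase Eno2 fell from 6.94 and 6.45 to 3.21 and 3.17 RPKM (log2 change -0.88, SE 0.06). Pgam2, the muscle phosphoglycerate mutase, fell too (log2 change -0.40, SE 0.03), whereas the transporter gene Slc16a4 was higher from a low level (log2 change 0.36, SE 0.08). Of the phosphofructokinase 2 and gluconeogenesis genes, 3 of 8 were lower and 2 higher. Both Pfkfb3 and Pfkfb4, whose products make the activator fructose 2,6-bisphosphate, fell, Pfkfb3 from 8.69 and 8.72 to 4.67 and 4.79 RPKM (log2 change -0.76, SE 0.05, adjusted p = 2.1e-06) and Pfkfb4 from 1.94 and 2.14 to 1.05 and 1.03 RPKM (log2 change -0.57, SE 0.07). Pck2, the mitochondrial phosphoenolpyruvate carboxykinase, fell (log2 change -0.28, SE 0.04), and G6pc3, a glucose 6-phosphatase, rose (log2 change 0.23, SE 0.05).

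Of the other pyruvate entry and citrate cycle genes, 7 of 21 were lower, 1 was higher and 13 were not called (median log2 change -0.07). Among all tested genes 18.2% were lower and 36.1% higher. The largest decreases were in Got1, the cytosolic aspartate aminotransferase (log2 change -0.41, SE 0.04), Mpc2, a subunit of the mitochondrial pyruvate carrier (log2 change -0.39, SE 0.05), Csl, a citrate synthase-like gene (log2 change -0.31, SE 0.07), and Pdpr, the regulatory subunit of pyruvate dehydrogenase phosphatase (log2 change -0.28, SE 0.07). The pentose phosphate pathway, which branches off at glucose 6-phosphate, had 4 of 8 genes higher and 0 lower, with a median of 0.12. H6pd, the enzyme of the endoplasmic reticulum, rose from 3.89 and 3.48 to 6.24 and 6.43 RPKM (log2 change 0.65, SE 0.06, adjusted p = 2.4e-05), and G6pdx, the rate-limiting cytosolic dehydrogenase, rose from 6.30 and 6.12 to 8.02 and 8.97 RPKM (log2 change 0.40, SE 0.06, adjusted p = 4.5e-04). Transketolase Tkt was the most abundant of the named genes of that route and rose from 109 and 109 to 143 and 142 RPKM (log2 change 0.38, SE 0.03, adjusted p = 1.7e-06). Pgd rose by less (log2 change 0.12, SE 0.04).

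Among regulators of glycolytic genes, 6 of 12 were higher and 4 lower, beside 36.1% higher and 18.2% lower among all tested genes. Txnip, an inhibitor of glucose uptake that binds GLUT1, fell from 132 and 128 to 79 and 78.5 RPKM (log2 change -0.72, SE 0.03, adjusted p = 5.1e-08). Mycn rose from 31.6 and 30.1 to 46.9 and 47.6 RPKM (log2 change 0.60, SE 0.04, adjusted p = 1.0e-06), and Myc rose from a low level, 0.593 and 0.587 to 1.49 and 1.46 RPKM (log2 change 0.64, SE 0.07). Egln1, an oxygen sensor that marks HIF proteins for decay, fell from 20.7 and 20.3 to 16.4 and 16.3 RPKM (log2 change -0.31, SE 0.04). Of the other hypoxia response genes, 12 of 17 fell and 3 rose (median log2 change -0.25). Ddit4, an inhibitor of mTORC1, fell from 65.7 and 62.3 to 39 and 39.1 RPKM (log2 change -0.70, SE 0.04, adjusted p = 2.8e-07). Decreases were also called for Higd1a (log2 change -0.58, SE 0.07), the mitophagy receptor Bnip3 (log2 change -0.52, SE 0.05) and the carbonic anhydrase Car9 (log2 change -0.51, SE 0.06).

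**Figure D5:**
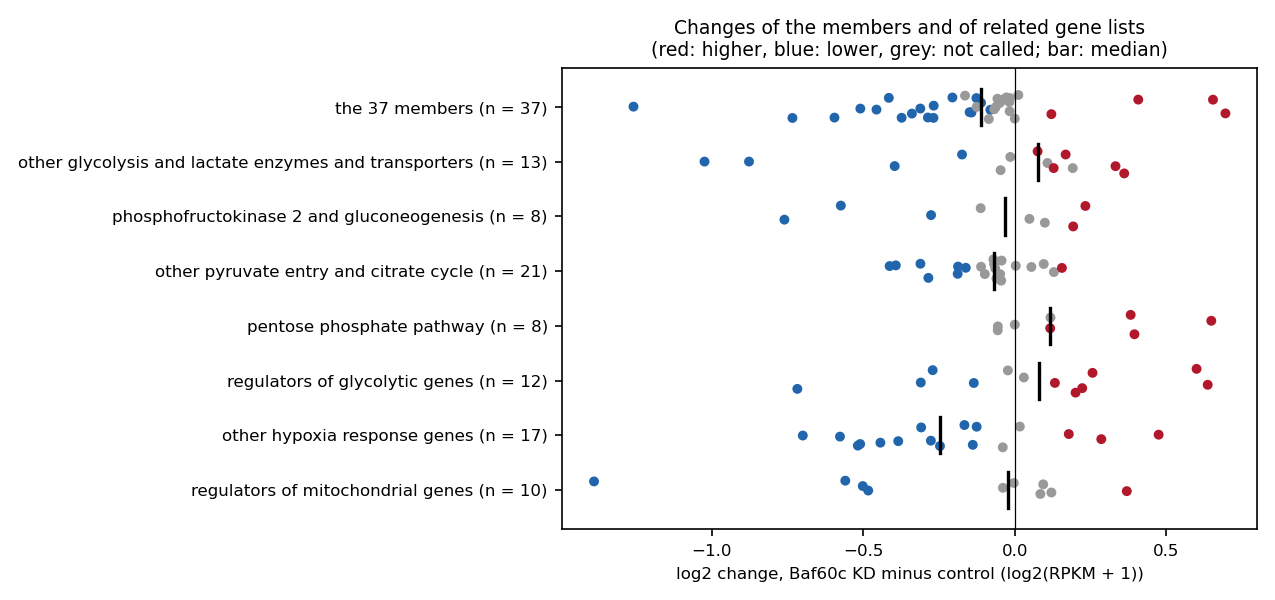
Log2 change (Baf60c KD minus control on log2(RPKM + 1)) of each tested gene in the set of 37 and in 7 related lists, coloured by call, with a bar at each median. The medians are -0.11 for the 37 genes, -0.25 for other hypoxia response genes and 0.12 for the pentose phosphate pathway.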

How the data were processed

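The authors deposited 1 table of RPKM values for 4 libraries. Per the study's methods, stranded mRNA libraries of sorted cells were sequenced on a NextSeq500, mapped with STAR to mm9 and counted with HOMER over exons of RefSeq transcripts on both strands (so genes that overlap on opposite strands cannot be told apart), and the authors computed RPKM with edgeR. Versions are not given in the sources used here. The deposited table also holds transcript lengths and the results of the authors' own comparison (mean, fold change and p-value from DESeq2), which were not used.

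RPKM multiplied by length came to whole reads for 100% of values (tolerance 0.001). The last 4200 rows, noncoding transcripts scaled to other totals, were left out, and the first 31507 were used. Per gene symbol, 1 transcript row was kept. Genes with a mean of at least 0.5 RPKM (11371) were fitted with limma 3.58.1 in R 4.3.3 on log2(RPKM + 1), with trend and robust estimation, on all 4 libraries. The steps were tested on simulated data. Replicates differed beyond sampling noise (chi-square per degree of freedom 1.49 for control and 1.16 for Baf60c KD). Groups came from the sample titles. Coordinates, exons and overlaps are from GENCODE M1 on mm9. Intervals from read counts would cover counting error only.

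The members and lists were chosen with earlier results of these data known. All 37 members are named, and of each other list up to 4 called genes of largest change. Promoters were to be those of members beyond 1.5-fold. Hk1 and Pdk1 (several starts) and Gapdh (few reads) were then not printed, and Hk2 and Pgk1 were added. Alternatives were another pseudocount, filters, scalings, transcript choices, voom on recovered reads, each library left out and a replicate block.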

Additional observations from a re-analysis of the deposited data

How the results depend on the processing

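Of 518 gene-by-alternative values of the 37 genes, 446 kept direction and side of the threshold, 25 gained a call, 36 lost one and 11 changed sign, all of the last in genes not called. The planned fit without a filter, in which 4640 genes at 0 in every library entered, called 221 genes (77 higher and 144 lower) instead of 6175. Of the members 0 were higher and 1 lower (0 and 1 beyond 1.5-fold). Over the 16061 genes with at least 1 read, an alternative added after seeing that result, 6203 were called (4068 higher and 2135 lower), with 4 members higher and 16 lower. With median-ratio factors 29 members were lower, beside 25.5% of all tested genes, and 1 was higher beyond 1.5-fold. The median of the members was then -0.19 (-0.16 with upper-quartile factors). Without the 4 members of largely repeated sequence, also added after seeing the data, 1 was higher beyond 1.5-fold, beside 4.8% of all tested genes. Aldoc and Idh3b changed sign to -0.057 and -0.078 with median-ratio factors and to -0.034 and -0.052 with upper-quartile factors. Leaving out each library in turn gave a median of the members of -0.099 to -0.071. Changes ran from -0.054 to 0.079 for Aldoc, -0.031 to 0.031 for Idh3b, -0.074 to 0.019 for Eno1 and -0.035 to 0.00028 for Idh3g. A group left with 1 library was assumed to vary like the other. Voom on the recovered reads called 6685 genes (4368 higher and 2317 lower), with 21 members lower and 4 higher. With a replicate block 6166 genes were called (4093 higher and 2073 lower), with 18 members lower and 4 higher (Pfkl lost its call at adjusted p = 0.0504 and Suclg1 gained one). The deviations of same-numbered libraries had a correlation of 0.024 over 11371 genes and of 0.12 over the 2468 genes of at least 20 RPKM, and as the labels tie no number to a shared batch, the numbers were not taken as pairs. The causes of these shifts were not tested, apart from the fit with genes at 0, which differs from the fit over genes with at least 1 read by those genes alone. Gapdh had 52 reads in each control library.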

Other observations

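Regulators of mitochondrial genes, a list chosen with earlier results of these data known, were lower in 4 of 10 tested genes and higher in 1, with a median log2 change of -0.02. Among all tested genes 18.2% were lower and 36.1% higher. The nuclear receptor Esrrg, which drives oxidative genes in heart muscle, went from 17.1 and 16.8 to 5.70 and 6.04 RPKM (log2 change -1.39, SE 0.05, adjusted p = 2.7e-08). Esrra, a related receptor, went from 5.36 and 5.56 to 3.67 and 3.46 RPKM (log2 change -0.50, SE 0.06, adjusted p = 9.2e-05). The coactivator genes Ppargc1a and Ppargc1b were low in every library and fell further, Ppargc1a from 0.908 and 0.745 to 0.253 and 0.224 RPKM (log2 change -0.56, SE 0.08) and Ppargc1b from 2.26 and 2.40 to 1.43 and 1.34 RPKM (log2 change -0.48, SE 0.07). Nrf1, Gabpa, Tfam, Tfb2m and Ppard were not called.

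Pkm has a pair of deposited transcript rows of equal length, which differed by 1220, 1026, 1228 and 1418 reads in control 1, control 2, Baf60c KD 1 and Baf60c KD 2, or 7.40 to 8.63% of the kept row.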
